A study of Rattus norvegicus with 6 samples.

Results

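The genes described here are 52 that encode subunits, assembly factors and regulators of the mitochondrial respiratory chain and ATP synthase, among 2890 genes named by the probe sets of the array. They were taken by name. A probe set counted when it was listed for exactly 1 gene whose symbol starts with Nduf, Sdh, Uqcr, Cox4, Cox5, Cox6, Cox7, Cox8 or Atp5, or is Cycs, with Sdh names limited to Sdha to Sdhd. This gave 90 probe sets, and the probe set with the highest mean over the 6 arrays stood for its gene. Of the 52 genes, 26 had more than 1 probe set. A further 7 probe sets list such a gene beside a copy or pseudogene and were left out, those of Atp5mc1, Atp5mc2, Cox7a2, Cycs, Ndufb4 and Ndufs5 and 1 of Cox5a. By complex, 25 genes belong to complex I, 1 to complex II, 3 to complex III, 13 to complex IV and 10 to complex V. Ndufa4l2 is counted with complex IV as a relative of its subunit Ndufa4.

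The study asks how demethylation changes gene expression in immortal and in RAS-transformed rat fibroblasts. 208F is an immortal rat fibroblast line, and FE8 is a rat fibroblast line transformed by the HRAS oncogene. The groups were 208F without drug (n = 1), FE8 without drug (n = 1), and each line treated with 0.3 µM 5-aza-2'-deoxycytidine for 96 h (n = 2 per line). The drug is a cytidine analogue that traps DNA methyltransferases, so that methylation is lost as cells divide. Each line is a single line, and the labels do not say whether duplicates came from separate cultures, so the p-values rest on the spread among these samples alone, and that spread may be technical. Total RNA was hybridised to the Affymetrix rat genome array of the U34 series, chip A, and the deposited signals are intensities on a linear scale.

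The respiratory chain passes electrons from NADH (through complex I) and succinate (through complex II) to ubiquinone, then through complex III and cytochrome c to complex IV, which reduces oxygen. Complexes I, III and IV pump protons out of the mitochondrial matrix, and ATP synthase, complex V, uses the returning protons to make ATP. Apart from complex II, each complex combines subunits encoded in mitochondrial DNA with many more encoded in the nucleus, and all 52 genes here are nuclear. Several complex IV subunits exist as isoforms with different tissue ranges.

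Promoter windows with their CpG are shown for 3 of the 5 complex I genes that passed the test as lower under the drug. They are also shown for Cox6a2 and Ndufa4l2, the 2 genes counted with complex IV that passed as higher. Cox5b is added because its treated arrays were all higher and a second probe set of it passed. Each window runs from 250 bases before to 50 bases after the gene's start in RefSeq (build GRCr8), 5′ to 3′ on the strand of the gene, with every CpG in capitals. The windows are chr4:69334057-69334356 (plus strand) for Ndufb2, chr1:186089287-186089586 (minus) for Ndufab1, chr7:10110449-10110748 (minus) for Ndufs7, chr1:192219667-192219966 (minus) for Cox6a2, chr7:65241919-65242218 (plus) for Ndufa4l2 and chr9:46417587-46417886 (plus) for Cox5b.
Ndufb2: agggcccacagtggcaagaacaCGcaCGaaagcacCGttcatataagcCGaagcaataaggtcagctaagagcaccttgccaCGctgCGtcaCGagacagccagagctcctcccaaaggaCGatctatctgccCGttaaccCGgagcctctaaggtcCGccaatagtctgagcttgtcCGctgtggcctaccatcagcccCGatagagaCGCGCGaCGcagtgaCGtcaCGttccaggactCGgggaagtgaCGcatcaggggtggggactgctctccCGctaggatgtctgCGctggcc
Ndufab1: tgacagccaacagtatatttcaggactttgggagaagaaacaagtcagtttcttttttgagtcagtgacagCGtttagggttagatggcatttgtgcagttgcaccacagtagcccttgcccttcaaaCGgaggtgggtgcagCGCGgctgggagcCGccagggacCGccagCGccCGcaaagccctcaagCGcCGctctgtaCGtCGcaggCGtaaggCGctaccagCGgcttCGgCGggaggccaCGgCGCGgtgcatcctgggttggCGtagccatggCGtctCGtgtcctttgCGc
Ndufs7: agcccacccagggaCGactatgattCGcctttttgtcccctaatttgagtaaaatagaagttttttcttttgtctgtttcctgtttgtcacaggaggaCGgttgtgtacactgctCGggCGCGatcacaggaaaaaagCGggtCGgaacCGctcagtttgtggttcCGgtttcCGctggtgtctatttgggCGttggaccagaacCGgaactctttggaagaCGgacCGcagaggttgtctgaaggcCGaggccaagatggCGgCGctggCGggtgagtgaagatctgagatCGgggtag
Cox6a2: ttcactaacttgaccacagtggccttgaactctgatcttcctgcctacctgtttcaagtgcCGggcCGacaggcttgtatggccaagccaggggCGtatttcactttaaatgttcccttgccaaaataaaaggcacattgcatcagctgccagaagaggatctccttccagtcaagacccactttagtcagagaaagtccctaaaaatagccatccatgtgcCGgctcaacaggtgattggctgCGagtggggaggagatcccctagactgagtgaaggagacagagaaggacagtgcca
Ndufa4l2: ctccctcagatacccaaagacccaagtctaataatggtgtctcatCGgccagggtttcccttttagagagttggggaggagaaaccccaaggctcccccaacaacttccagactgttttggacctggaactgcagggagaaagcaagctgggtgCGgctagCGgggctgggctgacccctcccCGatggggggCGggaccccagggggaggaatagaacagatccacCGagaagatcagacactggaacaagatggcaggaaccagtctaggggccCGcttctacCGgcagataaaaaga
Cox5b: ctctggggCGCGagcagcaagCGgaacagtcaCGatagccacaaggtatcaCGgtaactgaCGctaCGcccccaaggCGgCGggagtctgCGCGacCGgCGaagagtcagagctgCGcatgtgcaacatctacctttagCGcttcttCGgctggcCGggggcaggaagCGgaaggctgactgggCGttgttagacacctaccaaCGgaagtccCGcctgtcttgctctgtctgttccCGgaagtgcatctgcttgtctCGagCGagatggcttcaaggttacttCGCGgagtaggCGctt

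The 3 complex I windows shown hold 23 CpG in Ndufb2, 24 in Ndufab1 and 20 in Ndufs7. Windows not shown, of the other members that passed as lower, hold 20 (Ndufb6), 14 (Ndufs8) and 16 (Atp5pf). Those of Cox6a2 and Ndufa4l2 hold 5 and 8, and that of Cox5b holds 27. A window was found for 45 of the 52 members, with a median of 20 CpG and a range of 5 to 39. The median was 21 over 2641 genes named on the array and 7 over all 33469 windows of the table. No window was found for Atp5pd, Cox4i2, Cox6a1, Cox6c, Ndufa8, Ndufb9 and Uqcr11. Methylation itself was not measured here.

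Short motifs were searched on both strands of the windows. The YY1 core AAGATGGC occurred in 11 of 45 members (24.4%), against 5.11% of genes named on the array and 3.17% of all windows. In 10 of these 11 the match began between 4 bases before and 23 bases after the start, as in Ndufs7 above (caagatggCGg), and in Atp5pf it began 111 bases before the start. The letters include ATG. The ETS core CCGGAAG occurred in 9 members (20.0%, against 15.4% and 8.75%). The full NRF1 core, which is the letters GCATGCGC with GC before them, occurred in 1 member, Atp5po (2.22%, against 1.55% and 0.852%), and the shorter form GCATGCGC, which lies within it, in Atp5po and Ndufa6 (4.44%, against 4.24% and 2.47%). Matches are descriptions of the letters and show no binding.

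Across all 4818 probe sets tested, median signals ran from 354 to 422 over the 6 arrays. By scan date, both untreated arrays were scanned in an earlier month than the 4 treated arrays, and they come from another chip lot. Each treated-against-untreated difference is therefore also one of scan month and chip lot, and the drug cannot be told apart from these. Among treated arrays, 208F replicate 1 had its own scan day and chip lot, while the rest shared a day and a lot. The 208F duplicates therefore differ in day and lot, and so in part do the treated lines. For beta-actin, 5′ signal over 3′ signal was 0.824 in 208F without drug, 0.529 and 0.456 in 208F with drug, 0.351 in FE8 without drug, and 0.405 and 0.384 in FE8 with drug. For GAPDH the same ratio was lower in the untreated arrays (0.916 in 208F, 0.691 in FE8) than in the treated arrays (1.01 to 1.13). Fibroblast markers were measured for 10 of 12 genes, with sums of 116215 in untreated 208F, 73153 to 96437 in treated 208F, 60735 in untreated FE8 and 48901 to 55009 in treated FE8. Vimentin stood at 18849 in untreated 208F and 16158 in untreated FE8, while the collagen Col1a1 stood at 22282 and 131. Epithelial markers (3 of 5 measured) summed to 168 and 145 in the untreated arrays and to between 3039 and 4418 in the treated arrays. Kdr, the 1 endothelial marker measured, was between 2 and 84, and Cd14, the 1 leukocyte marker measured, between 160 and 446. The part of ratio and marker differences in the results below was not tested.

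The members were bright as a group. Their mean signals ran from 149 (Cox5a) to 13968 (Cox4i1) with a median of 2367, and 51 of 52 had a mean of at least 200. Signals of different probe sets are not on a common scale, so levels are compared below only between arrays of the same probe set. Differences are given as log2 of (signal + 64) with their standard error from the fit, and a difference passed the test when its limma p, adjusted by Benjamini-Hochberg over all 4818 probe sets, was under 0.05. In bulk RNA, fewer cells of a kind and less RNA per cell cannot be told apart.

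Under the drug, the median member was lower in both lines, and 5 of the 6 members that passed as lower belong to complex I. Averaged over the lines (4 treated against 2 untreated arrays), the median difference of the 52 members was -0.22, against 0.11 over all probe sets, and 38 of 52 were below 0, against 42.0% of all probe sets. The test was passed by 6 members that were lower (against 6.5% of all probe sets and 13.5% of the bright ones described next) and 2 that were higher (against 9.07% and 10.9%). That makes 8 of 52 in either direction, against 15.6% of all probe sets. Of the bright ones, 955 of 1263 did not pass, against 44 of 52 members. Members therefore passed the test about as often as any probe set and less often than bright ones. Bright probe sets also lay lower in treated arrays. Over the 1263 with a mean signal of at least 1000, a bound chosen after the values were seen, the median was -0.09 and 58.1% were below 0.

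By complex, the median averaged difference was -0.30 for the 25 genes of complex I, of which 23 were below 0 and 5 passed the test as lower. It was -0.31 for the 3 genes of complex III, none of which passed, 0.01 for the 13 of complex IV, where 2 passed as higher, and -0.10 for the 10 of complex V, where 1 passed as lower. Sdha, the only gene of complex II, was at 0.13. The complexes were not tested against each other. Setting each array to the same median moved the median of all probe sets by more than 0.1, from 0.11 to -0.01. Relative to the median of all probe sets, members were at -0.33 as deposited, -0.36 after that scaling and -0.10 after quantile normalization. Complex I kept a median below 0 under each of these scalings (-0.45 and -0.27 for the latter pair). The count of members past the test depended on single treated arrays, as did the count over all probe sets. With 208F treated replicate 1 or 2 left out, the median member was at -0.204 or -0.219, against 0.111 or 0.089 over all probe sets. With FE8 treated replicate 1 or 2 left out, it was at -0.188 or -0.255, against 0.067 or 0.131. After quantile normalization Atp5pf, Ndufa4l2, Ndufb6, Ndufs7 and Ndufs8 no longer passed (adjusted p from 0.058 to 0.11), and without an intensity trend in the fit Atp5pf, Ndufb6, Ndufs7 and Ndufs8 did not (0.065 to 0.099).

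**Figure D1:**
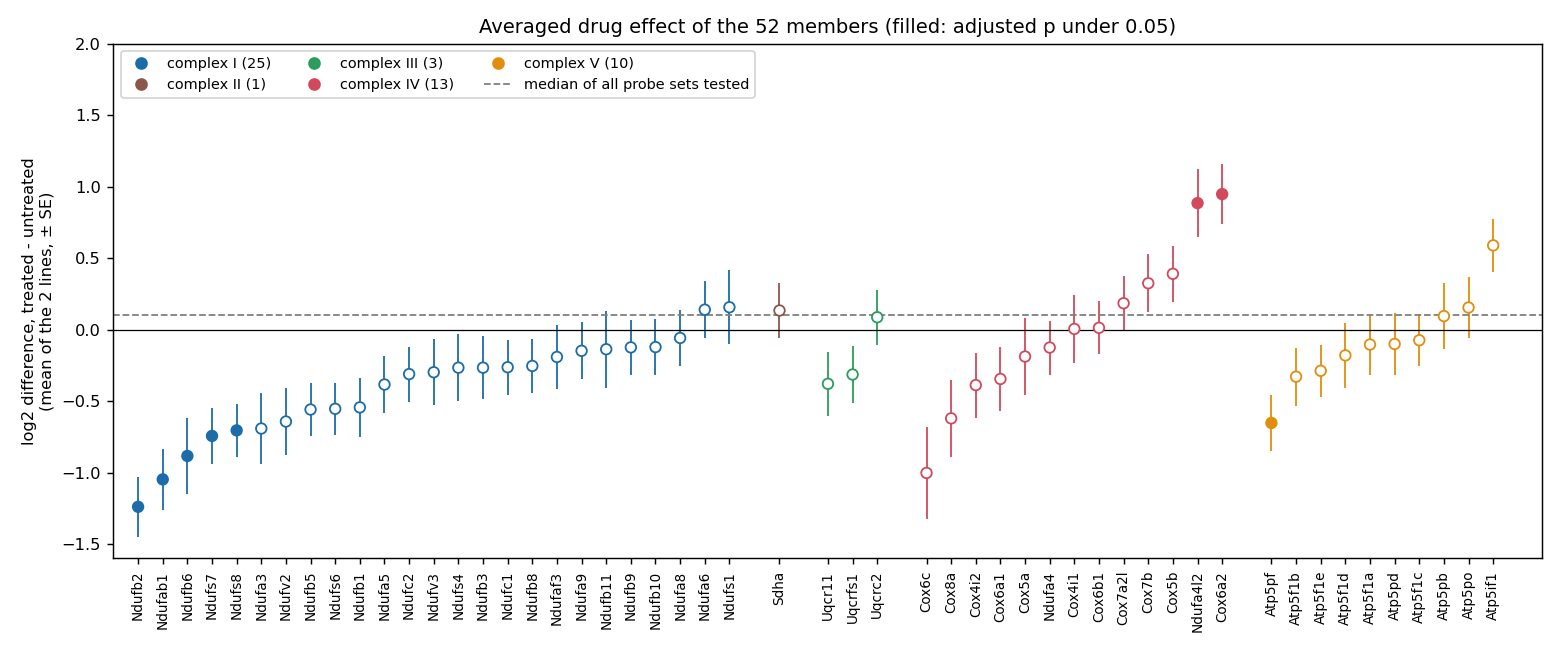
Averaged treated-minus-untreated difference (log2, vertical axis) of the 52 members, ordered within each complex, with bars of 1 SE; filled points have an adjusted p under 0.05 and the dashed line is the median of all probe sets (0.11). All 5 filled points of complex I lie below 0, from -0.71 to -1.24, and both filled points of complex IV lie above it.

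In 11 of the 25 complex I genes, all 4 treated arrays were below both untreated arrays, an order seen in 12.5% of all probe sets and 22.8% of those with a mean signal of at least 1000. The 11 were Ndufs6, Ndufs7, Ndufs8, Ndufv2, Ndufa3, Ndufab1, Ndufb1, Ndufb2, Ndufb5, Ndufb6 and Ndufc2. Over all members the order held in 14, adding Cox6c, Cox6a1 and Atp5pf. The opposite order held in 5 members, Ndufa4l2, Ndufs1, Atp5if1, Cox7b and Cox5b, against 18.6% of all probe sets and 13.7% of the bright ones.

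Ndufb2, an accessory subunit of the membrane arm of complex I, had the largest fall. Its signal was 3143 in 208F without drug, 1308 and 1468 in 208F with drug, 3933 in FE8 without drug, and 1259 and 1837 in FE8 with drug. Every treated array was below both untreated arrays by more than the treated duplicates differed. The averaged difference was -1.24 ± 0.21 (adjusted p = 0.0026), and it passed the test in all 11 alternative settings (highest adjusted p = 0.049). It passed within each line, at -1.15 ± 0.30 in 208F (adjusted p = 0.049) and -1.33 ± 0.30 in FE8 (adjusted p = 0.019). Without FE8 treated replicate 1 or 2, neither line's difference passed alone (0.16 and 0.16 in 208F, 0.26 and 0.097 in FE8). In 208F the call was also lost in other settings (0.053 to 0.12) and in FE8 without an intensity trend (0.059). The line comparison for Ndufb2 was 0.32 ± 0.34 without drug and 0.13 ± 0.24 with it.

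Ndufab1 encodes the mitochondrial acyl carrier protein, which serves fatty acid and lipoic acid synthesis and is also a subunit of complex I. It was at 3703 in 208F without drug, 1878 and 2023 in 208F with drug, 4164 in FE8 without drug, and 1425 and 2238 in FE8 with drug. The treated and untreated arrays did not overlap. It fell by 1.05 on the log2 scale, averaged over lines (SE 0.22, adjusted p = 0.0079), and by 1.19 in FE8 (SE 0.31, adjusted p = 0.038), while 208F was at -0.90 ± 0.31 (adjusted p = 0.13). The averaged call was lost without FE8 treated replicate 1 (adjusted p = 0.089), and the FE8 call without either FE8 replicate (0.37 and 0.11). The FE8 call was lost as well after quantile normalization (0.067), with a minimum mean signal (0.051) and without a trend (0.092). Its other probe set stood at -0.76 on average and did not pass (adjusted p = 0.21).

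Ndufs7 and Ndufs8 are core subunits that carry iron-sulfur clusters close to the ubiquinone site. Ndufs7 was at 2079 in 208F without drug, 1195 and 918 in 208F with drug, 1715 in FE8 without drug, and 1143 and 1175 in FE8 with drug. Ndufs8 was at 2477, then 1262 and 1145, in 208F, and at 2180, then 1607 and 1653, in FE8. For both genes the treated arrays were all below the untreated ones, and the drop was larger in 208F. The difference between the lines did not pass the test (0.41 ± 0.40 and 0.60 ± 0.37, adjusted p = 1.0 and 0.89). The averaged differences were -0.74 ± 0.20 for Ndufs7 (adjusted p = 0.028) and -0.71 ± 0.19 for Ndufs8 (adjusted p = 0.026). Both calls were lost without FE8 treated replicate 1 (0.15 for each) or 2 (0.13 for each), and the other probe set of Ndufs8 was at -0.44 (adjusted p = 0.28).

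Ndufb6, a membrane-arm subunit, was the fifth complex I gene past the test. Its signals were 2263 in 208F without drug, 863 and 1525 in 208F with drug, 1909 in FE8 without drug, and 811 and 1344 in FE8 with drug. Duplicates spread widely, but no treated array reached an untreated one. The averaged difference was -0.88 ± 0.27 (adjusted p = 0.046), lost without FE8 treated replicate 1 (0.24) or 2 (0.096). Its other probe set passed as well, at -0.71 (adjusted p = 0.038).

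The other core subunits did not pass. Ndufv2, which holds an iron-sulfur cluster near the NADH site, was at -0.64 ± 0.23 on average (adjusted p = 0.089). Ndufs1, the largest core subunit, was at 0.16 ± 0.26, with dim signals of 191 to 236 in all 6 arrays. Of the 12 genes counted here as accessory subunits of the membrane arm, each had an averaged difference below 0, with a median of -0.29. All 12 were below 0 in FE8, and 11 in 208F, where Ndufb3 was at 0.16. Over probe sets with a mean signal of at least 1000, the shares below 0 were 58.1% averaged, 57.8% in FE8 and 56.4% in 208F. Of the 5 counted with the matrix arm (Ndufa5, Ndufa6, Ndufs4, Ndufs6, Ndufv3), 4 were below 0, with a median of -0.30 and none past the test. Ndufs6 was at -0.55 ± 0.18 (adjusted p = 0.066), and Ndufa6 was the exception at 0.14 ± 0.20. The assembly factor Ndufaf3 was at -0.19 ± 0.22, and Ndufa8 and Ndufa9 were at -0.06 ± 0.20 and -0.15 ± 0.20. Ndufa8, on the intermembrane space side, and Ndufa9, near the quinone site, were left out of both arm counts. They stood above 0 in FE8 (0.14 and 0.09) and below 0 in 208F (-0.26 and -0.38).

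**Figure D2:**
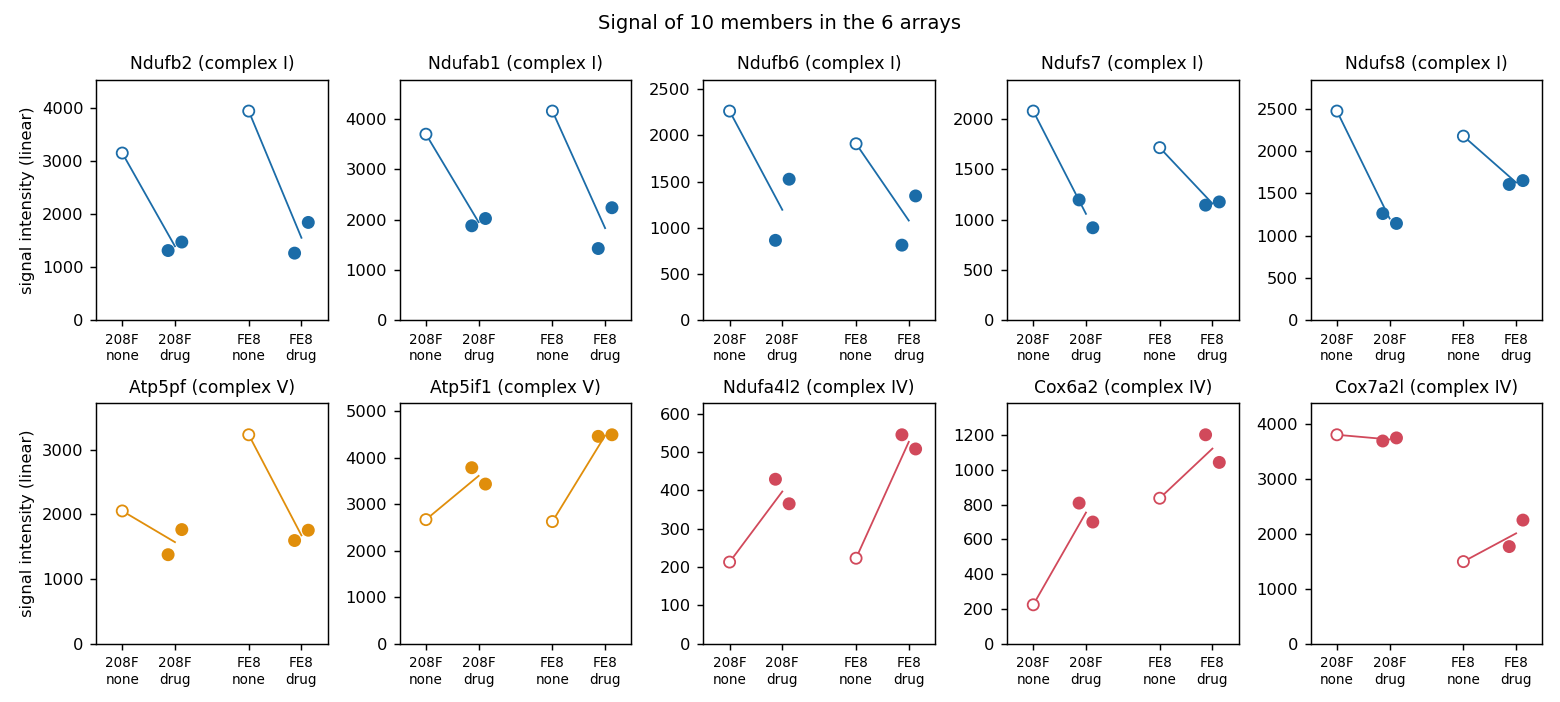
Signal intensity (linear axis from 0) of 10 members in each of the 6 arrays, with open circles for untreated and filled circles for treated arrays; lines join the untreated value to the mean of the treated duplicates. In the 5 complex I panels and Atp5pf every treated array is below both untreated ones, and in the Cox7a2l panel every FE8 array is below every 208F array.

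No gene of complexes II and III passed the test in any comparison. Sdha, the flavoprotein of succinate dehydrogenase, was at 1150 in 208F without drug, 1458 and 1720 in 208F with drug, 1324 in FE8 without drug, and 1176 and 1162 in FE8 with drug. Its drug differences were 0.44 ± 0.27 in 208F and -0.17 ± 0.27 in FE8, and neither passed (adjusted p = 0.46 and 0.79). Treated FE8 lay below treated 208F without overlap, at -0.42 ± 0.22 (adjusted p = 0.40). In complex III, Uqcr11, a small subunit, was at -0.38 ± 0.22 on average, with signals of 5624, 4663 and 3296 in 208F (untreated, then treated) and of 4023, 4008 and 2856 in FE8. Uqcrfs1, the Rieske iron-sulfur protein, was at -0.31 ± 0.20, with 4290, 4493 and 3355 in 208F and 6333, 4244 and 4781 in FE8. Untreated FE8 had the highest Uqcrfs1 signal of the 6 arrays, a line difference of 0.56 ± 0.33 that did not pass (adjusted p = 0.52). Uqcrc2, a core protein, was at 0.09 ± 0.19.

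Both members that passed as higher were counted with complex IV, Ndufa4l2 only as a relative of its subunit Ndufa4. Cox6a2 is the isoform of subunit 6a found mainly in heart and skeletal muscle. Its signal was 224 in 208F without drug, 809 and 700 in 208F with drug, 837 in FE8 without drug, and 1202 and 1043 in FE8 with drug. Untreated 208F was far below the other 5 arrays, and treated FE8 was above treated 208F. Cox6a2 rose in 208F by 1.504 ± 0.297 (adjusted p = 0.013) and averaged over lines by 0.95 ± 0.21 (adjusted p = 0.011), and FE8 stood at 0.39 ± 0.30 (adjusted p = 0.51). Without drug it was higher in FE8 than in 208F by 1.65 ± 0.34 (adjusted p = 0.015), and with drug by 0.54 ± 0.24, which did not pass (adjusted p = 0.29). Its drug effects differed between the lines by -1.11 ± 0.42 (FE8 minus 208F), with an unadjusted p of 0.0229 and an adjusted p of 0.49.

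All Cox6a2 calls were lost without FE8 treated replicate 1 (adjusted p = 0.089 in 208F, 0.094 averaged, 0.087 between untreated lines) or replicate 2 (0.086, 0.063 and 0.084), and those in 208F and between untreated lines after quantile normalization (0.061 for each). The probe set used may be shared between transcripts, as may a dimmer one that gave 47 in 208F without drug, 671 and 554 in 208F with drug, 477 in FE8 without drug, and 732 and 519 in FE8 with drug. That one also rose in 208F, by 2.60 (adjusted p = 0.0015) and was higher in FE8 without drug, by 2.29 (adjusted p = 0.0062). The only Cox6a2 probe set without such a mark was between 4 and 49 in all arrays, below the added 64, and passed in no comparison. Muscle markers are given beside it. Of 9 listed, 4 were measured (Acta1, Myod1, Myh7 and Des), none at 0, and they summed to 513 in 208F without drug, 2197 and 2688 in 208F with drug, 124 in FE8 without drug, and 652 and 805 in FE8 with drug. Their part in the Cox6a2 result was not tested.

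The widespread isoform Cox6a1 stood below 0 and did not pass. Its signals were 10985 in 208F without drug, 10108 and 7407 in 208F with drug, 10659 in FE8 without drug, and 7167 and 9753 in FE8 with drug, an averaged difference of -0.35 ± 0.23 (adjusted p = 0.35). The brighter of its other probe sets was at -0.58 (adjusted p = 0.065). Of the subunit 4 isoforms, widespread Cox4i1 was at 0.01 ± 0.24 on average. Cox4i2, known from lung and hypoxia, was at 726 in untreated 208F and between 367 and 479 in the other 5 arrays, a difference of -0.74 ± 0.32 in 208F (adjusted p = 0.26).

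Ndufa4l2, a relative of the complex IV subunit Ndufa4 that is known to be induced by hypoxia, rose when averaged over the lines. Signals were 213 in 208F without drug, 429 and 365 in 208F with drug, 223 in FE8 without drug, and 545 and 508 in FE8 with drug. All 4 treated arrays were above both untreated arrays, and treated FE8 was above treated 208F. The averaged difference was 0.89 ± 0.24 (adjusted p = 0.029), lost without FE8 treated replicate 1 (0.12) or 2 (0.098) and after quantile normalization (0.11). All 4 of its probe sets carry a mark for shared or reduced probes. Of the other 3, each higher on average, 2 passed, at 1.42 (adjusted p = 0.0045) and 1.18 (adjusted p = 0.013). In untreated FE8 these stood at only 64 and 10, at or below the added 64. Ndufa4 itself was at -0.13 ± 0.19 under the drug, and was lower in treated FE8 than in treated 208F by -0.64 ± 0.22 (2116 and 2284 against 3813 and 3126), which did not pass (adjusted p = 0.13).

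**Figure D3:**
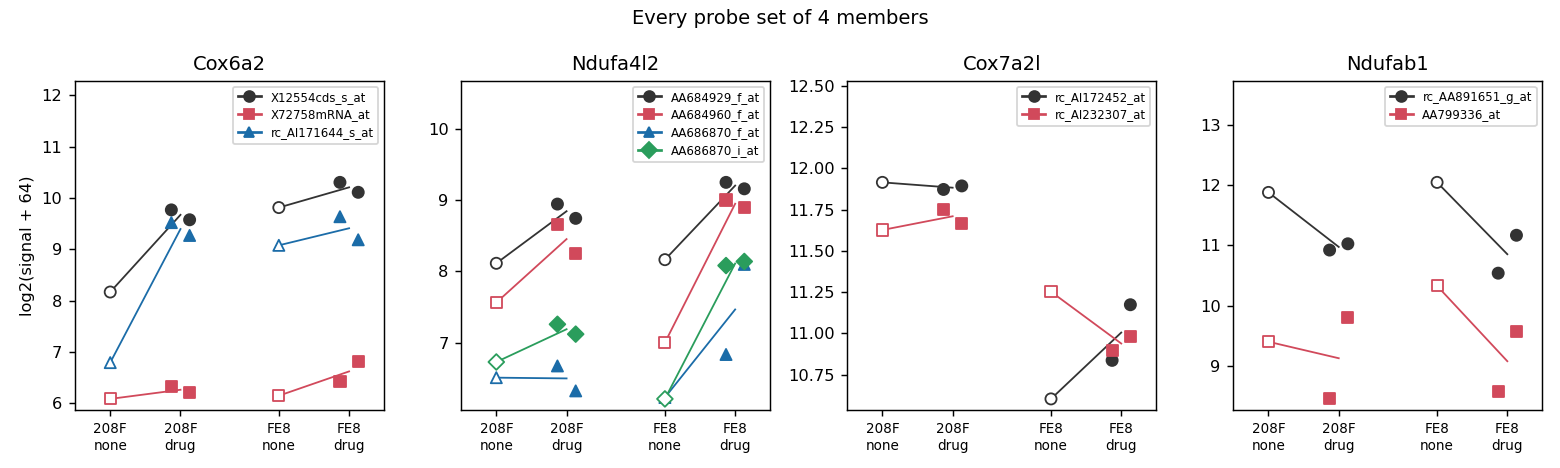
Every probe set of 4 members as log2(signal + 64) in the 6 arrays, with open symbols for untreated and filled symbols for treated arrays and a colour and shape for each probe set. Both brighter Cox6a2 probe sets rise in 208F while the dimmest stays near the added 64, and both Cox7a2l probe sets are lower in FE8.

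The remaining complex IV genes did not pass in any comparison, apart from Cox7a2l. Cox6c was dim and variable, at 504 in 208F without drug, 327 and 277 in 208F with drug, 510 in FE8 without drug, and 87 and 263 in FE8 with drug. Its averaged difference of -1.003 ± 0.321 had an adjusted p of 0.058. Cox8a was at 10347 in 208F without drug, 9585 and 4993 in 208F with drug, 14577 in FE8 without drug, and 8054 and 10418 in FE8 with drug. Its averaged difference was -0.62 ± 0.27 (adjusted p = 0.16), and its other 3 probe sets ran from -0.26 to 0.46. Cox5b, a subunit of the matrix side, was at 0.39 ± 0.19 (adjusted p = 0.21), whereas its dimmer probe set passed, at 1.14 (adjusted p = 0.0022). Both Cox5b probe sets carry a mark for shared or reduced probes. Cox6b1 (0.01 ± 0.19) and Cox5a (-0.19 ± 0.27) were close to 0, and Cox7b was at 0.33 ± 0.20.

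Cox7a2l was lower in FE8 than in 208F both without and with drug. It encodes a relative of subunit 7a that helps to join complexes III and IV into supercomplexes. Its signal was 3796 in 208F without drug, 3683 and 3739 in 208F with drug, 1492 in FE8 without drug, and 1765 and 2246 in FE8 with drug, so that all 208F arrays were above all FE8 arrays. That order held in 7 members, against 9.53% of all probe sets, the others being Ndufa4, Ndufc1, Ndufb10, Cox6b1, Atp5pd and Atp5f1c. The reverse order held in Ndufb8, Ndufa8 and Cox6a2, 3 members, against 8.55%. It was lower in FE8 by -1.31 ± 0.31 without drug (adjusted p = 0.031) and by -0.88 ± 0.22 with drug (adjusted p = 0.036). Drug differences were -0.03 ± 0.27 in 208F and 0.40 ± 0.27 in FE8. Both line calls were lost without FE8 treated replicate 1 (adjusted p = 0.16 and 0.45) or replicate 2 (0.15 and 0.22). The call without drug was also lost after quantile normalization (0.050), with arrays scaled to 1 median (0.055) and without an intensity trend (0.10), and that with drug after such scaling (0.072), with a minimum mean signal (0.051), without a trend (0.10) and with the replicate number as a block (0.057). In its other probe set FE8 was also below 208F in all arrays, at 2376 untreated and 1840 and 1960 treated against 3097, 3382 and 3189. The differences there were -0.37 without drug (adjusted p = 0.70) and -0.77 with drug (adjusted p = 0.052).

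Few members separated the lines. Without drug, 2 of 52 members passed, Cox6a2 higher and Cox7a2l lower in FE8, against 5.92% of all probe sets (3.09% higher, 2.82% lower), and the median difference was 0.00. With drug, 1 passed, Cox7a2l, against 7.08% (3.42% higher, 3.65% lower), and the median was -0.03. Both counts fell when a treated FE8 array was left out and rose when a treated 208F array was left out. The counts over all probe sets moved the same way. The member median then stayed at 0.004 without drug and ran from -0.074 to 0.072 with drug. Differences were under 0.5 in size for 42 members without drug and 48 with drug. Treated FE8 lay below treated 208F without overlap in 13 members, against 21.5% of all probe sets, and above in 8, against 20.7%. Complex I was at a median of -0.03 in both comparisons, and complex V at 0.14 and -0.02. These comparisons share no array, and 38 of 52 members had the same sign in both. No counts over all probe sets are given beside these 42, 48 and 38. The largest differences with drug that did not pass included the membrane-arm subunits Ndufb8 (0.50 ± 0.22) and Ndufc1 (-0.48 ± 0.22), with adjusted p = 0.27 and 0.30.

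**Figure D4:**
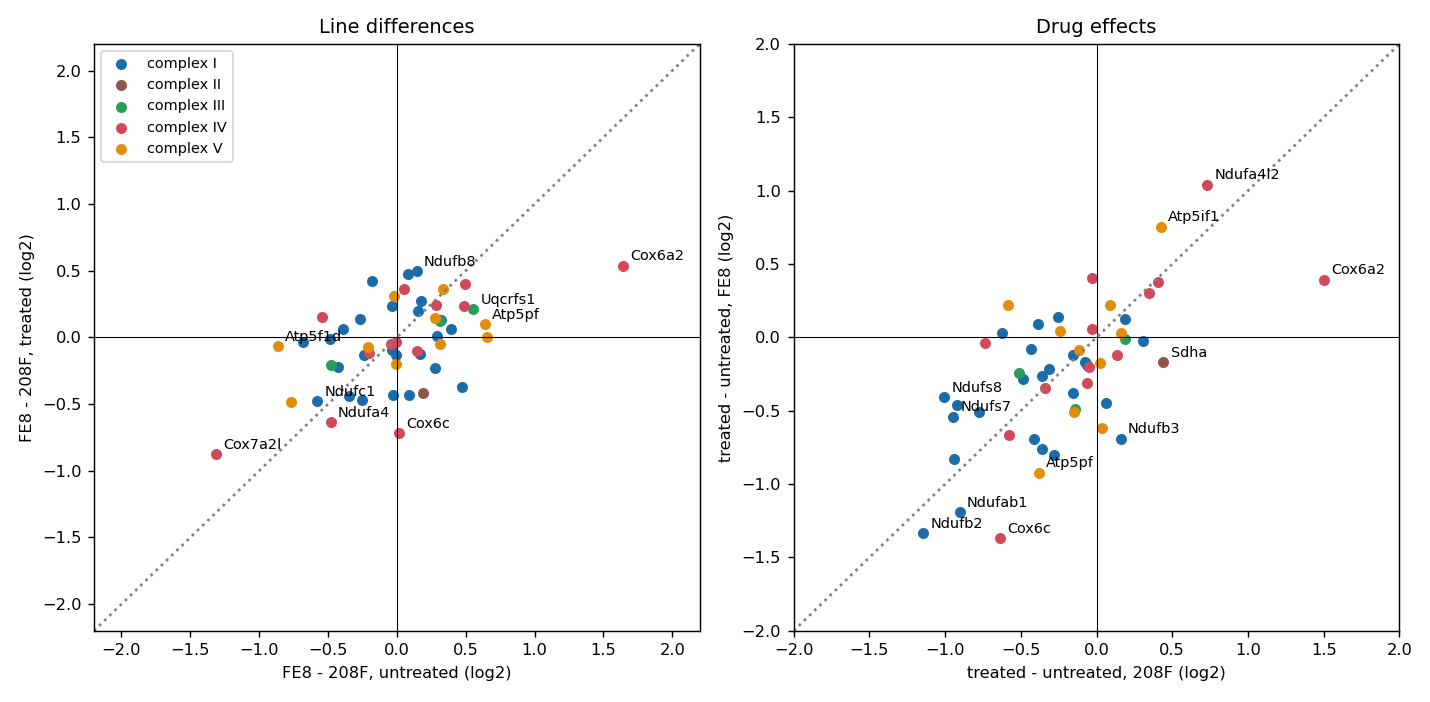
The 52 members by complex. The left panel sets the FE8 minus 208F difference without drug (horizontal) against that with drug (vertical), and the right panel sets the drug difference in 208F against that in FE8, all in log2 with a dotted line of equality; the axes of a panel share no array. Cox7a2l is lowest on both axes at left, and Ndufb2 and Ndufab1 lie at the lower left of the right panel. There 29 members are below 0 on both axes and 8 above, with no counts over all probe sets given beside them.

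In ATP synthase, the stalk subunit Atp5pf (subunit F6) was the 1 member past the test. It was at 2052 in 208F without drug, 1376 and 1764 in 208F with drug, 3229 in FE8 without drug, and 1595 and 1754 in FE8 with drug. Treated arrays were all below untreated ones. The drug effects of the lines differed by -0.54 ± 0.39 (FE8 minus 208F), which did not pass (adjusted p = 0.97). The averaged difference was -0.65 ± 0.20 (adjusted p = 0.044), lost without FE8 treated replicate 1 (0.21) or 2 (0.15), and its other probe set was at -0.42 (adjusted p = 0.43). The inhibitor Atp5if1, which blocks ATP hydrolysis when the proton gradient fails, was at 2669 in 208F without drug, 3785 and 3433 in 208F with drug, 2627 in FE8 without drug, and 4459 and 4493 in FE8 with drug. All treated arrays were above both untreated ones. Its averaged difference of 0.59 ± 0.18 missed the threshold (adjusted p = 0.051), and of its other 3 probe sets 1 passed, at 1.38 (adjusted p = 0.0038). That probe set was dim, at 47 in untreated FE8, below the added 64.

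No gene of the catalytic head or central stalk of ATP synthase passed the test. Atp5f1b, which carries the catalytic sites, was at 10196 in 208F without drug, 10231 and 8261 in 208F with drug, 12681 in FE8 without drug, and 8967 and 8809 in FE8 with drug, an averaged difference of -0.33 ± 0.20 (adjusted p = 0.32). Atp5f1a, the alpha subunit, was at -0.10 ± 0.21, and was higher in treated FE8 (3004 and 2040) than in treated 208F (1811 and 2019) by 0.36 ± 0.24 (adjusted p = 0.57). Atp5f1c (-0.07 ± 0.18), Atp5f1d (-0.18 ± 0.23) and Atp5f1e (-0.29 ± 0.18) did not pass either. Of the peripheral stalk, Atp5pb and Atp5po were at 0.09 ± 0.23 and 0.15 ± 0.21. The second probe set of Atp5po was at 4388 in 208F without drug, 4087 and 3163 in 208F with drug, 1765 in FE8 without drug, and 3472 and 3647 in FE8 with drug. Untreated FE8 was below the other 5 arrays, and the line difference without drug passed there (-1.28, adjusted p = 0.036), unlike in the brighter probe set (-0.21, adjusted p = 0.91). Its drug difference in FE8 was 0.99 (adjusted p = 0.051). Atp5pd was lower in treated FE8 (2840 and 4341) than in treated 208F (4621 and 5264) by -0.48 ± 0.25 (adjusted p = 0.38).

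Within each line alone few members passed under the drug. In 208F these were Ndufb2 lower and Cox6a2 higher, 2 of 52 against 5.19% of all probe sets (3.59% higher, 1.6% lower), with a median of -0.16 against 0.11 over all. In FE8 they were Ndufb2 and Ndufab1, both lower, 2 of 52 against 8.16% (5.06% higher, 3.09% lower), with a median of -0.19 against 0.08. Both counts rose when a treated 208F array was left out and fell when a treated FE8 array was left out. The counts over all probe sets moved the same way. The member median then ran from -0.198 to -0.157 in 208F and from -0.254 to -0.162 in FE8. Among the 38 other probe sets of members, 2 passed in 208F and 4 in FE8, all of them higher. In 208F they were those of Cox5b (1.10, adjusted p = 0.036) and Cox6a2, and in FE8 those of Atp5if1 (2.34, adjusted p = 0.0023), Cox5b (1.19, adjusted p = 0.018) and 2 of Ndufa4l2 (1.95 and 1.90, adjusted p = 0.0088 and 0.012). Apart from Cox5b, whose probe set carries a mark for shared or reduced probes, these rest on an untreated value at or below the added 64. That value was 47 for Cox6a2 in 208F, and in FE8 47 for Atp5if1 and 64 and 10 for Ndufa4l2. The brighter Atp5if1 probe set used was at 0.76 in FE8 and did not pass (adjusted p = 0.11). Complex I was at -0.36 in 208F and -0.38 in FE8, with 21 of 25 below 0 in each. The shares below 0 were 41.3% and 44.3% over all probe sets, and 56.4% and 57.8% over the bright ones. The test of the difference between the drug effects was passed by none of 52 members, against 0.0623% of all probe sets, with 1 (Cox6a2) at an unadjusted limma p under 0.05, against 7.56%. The standard errors of these differences ran from 0.36 to 0.64, and differences of that size were not detectable with these arrays.

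The CpG content of the promoter windows shown above was set beside the averaged drug effect. Over the 45 members with a window, CpG number and drug effect had r = -0.20 (Pearson) and -0.12 (Spearman), across genes that share the same 6 arrays. The 5 members with fewer than 10 CpG (Cox6a2, Cox6b1, Cox7b, Ndufa3 and Ndufa4l2) had a median of 0.33, and the other 40 a median of -0.26. That split was made after the values were seen. Within it Ndufa3, with 9 CpG, was at -0.69 ± 0.25. The 11 members with the YY1 letters had a median of -0.27 and the other 34 a median of -0.18.

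Other mitochondrial genes were described from fixed lists, and their counts in the averaged drug effect stand against 9.07% of all probe sets higher, 6.5% lower and 15.6% in either direction. Of 16 measured genes of the tricarboxylic acid cycle and pyruvate metabolism, 2 were lower and 1 was higher, with a median of -0.10. Idh2, the NADP-dependent isocitrate dehydrogenase, was at 3916 in 208F without drug, 2016 and 1638 in 208F with drug, 2998 in FE8 without drug, and 950 and 584 in FE8 with drug (-1.499 ± 0.226, adjusted p = 0.0015). Pdha1, a subunit of pyruvate dehydrogenase, fell (-1.01 ± 0.19, adjusted p = 0.0047), and the malate dehydrogenase Mdh2 rose (0.90 ± 0.21, adjusted p = 0.013). Of 10 carriers and channels, 3 were lower and 2 higher, with a median of -0.30. The lower ones were the outer membrane channel Vdac1 (-0.94 ± 0.21), the citrate carrier Slc25a1 (-0.95 ± 0.22) and the ADP/ATP carrier Slc25a5 (-0.61 ± 0.19). Ucp2, an uncoupling protein, rose from 259 to 1013 and 929 in 208F and from 379 to 1024 and 1172 in FE8 (1.53 ± 0.21, adjusted p = 0.00074). The carrier Slc25a11 rose as well (0.79 ± 0.22, adjusted p = 0.031).

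Of 11 genes of biogenesis, import and assembly, 1 passed, the single-stranded DNA binding protein Ssbp1 (0.86 ± 0.24, adjusted p = 0.032), with a median of -0.04. Of 16 fatty acid oxidation genes, 2 were higher, the dehydrogenase Acadl (0.83 ± 0.20) and the carnitine palmitoyltransferase Cpt1a (0.72 ± 0.21), and 1 was lower, the hydratase Echs1 (-0.92 ± 0.25), with a median of 0.18. Of 13 mitochondrially encoded genes, 3 were measured, the complex IV core subunits COX1, COX2 and COX3, and none passed. COX1 was at 17508 in 208F without drug, 25674 and 17778 in 208F with drug, 20759 in FE8 without drug, and 20760 and 22571 in FE8 with drug. The mitochondrially encoded genes had a median of 0.17 on average, while nuclear complex IV was at 0.01.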

How the data were processed

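Gene expression was measured in 6 RNA samples on 6 arrays in 4 groups named in the labels. The deposited values are signal intensities per probe set on a linear scale, which the authors made with MAS5 per the submitters' processing notes, without version or settings. Their filter and scaling are not given in the sources used here; the table holds 4847 probe sets, of which 29 controls were left out. Run settings of each array (chip lot and scan time) were read from the deposited settings files, which hold no other measurement. Genes were named from the platform's table, with symbols updated by gene identifier to RefSeq names of GRCr8 (3942 of 3956 probe sets with 1 gene matched).

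Signals were transformed as log2(signal + 64), where 64 is the 10th percentile of all values, and fitted with 4 group means in limma 3.58.1 (R 4.3.3) with lmFit and eBayes with an intensity trend, leaving 2 residual degrees of freedom and 9.02 prior ones. The untreated arrays are single, and the fit gives them the spread of the treated duplicates. Tests were 2-sided moderated tests, adjusted by Benjamini-Hochberg over 4818 probe sets within each of 6 comparisons. The fit was tested on simulated data. The number of arrays limits the precision.

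Members and lists were chosen with earlier results of these data known. Members named with every array were those past the test in any comparison, the 2 with the largest averaged drug effect and line difference of each complex, and the isoform families; others are given by values or ranges. Alternatives were a smaller and a larger pseudocount, quantile normalization, scaling to 1 median, a minimum mean signal of 200, no trend, no probe sets marked as shared (suffixes s, f, i, r and g), second probe sets, each treated array left out, treated arrays alone and a replicate block.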

Additional observations from a re-analysis of the deposited data

Results flagged for a closer look

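For 8 members, both treated arrays of one line lay above its untreated array and both of the other line below, an order seen in 577 of all 4818 probe sets (12%). The difference of drug effects (FE8 minus 208F) was tested in the fit and passed for none of them. It was -0.85 ± 0.44 for Ndufb3 (adjusted p = 0.76), -0.61 ± 0.39 for Sdha (0.90), -0.51 ± 0.45 for Ndufaf3 (1.0) and -0.20 ± 0.36 for Atp5f1c (1.0). It was 0.47 ± 0.40 for Ndufa9 (1.0), 0.43 ± 0.38 for Cox7a2l (1.0), 0.40 ± 0.40 for Ndufa8 (1.0) and 0.087 ± 0.373 for Cox6b1 (1.0). Ndufb3, a membrane-arm subunit of complex I, was at 1770 in 208F without drug, 1840 and 2137 in 208F with drug, 2487 in FE8 without drug, and 1208 and 1901 in FE8 with drug.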

How the results depend on the processing

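The number of members past the test moved with most settings, while their median stayed below 0 for the drug effect in each line and averaged, in every setting run. As deposited the counts were 2 between untreated lines, 1 between treated lines, 2 for the drug in 208F, 2 in FE8, 8 averaged and 0 for the difference. With quantile normalization they were 0 between untreated lines, 0 in 208F, 1 in FE8 and 4 averaged, and the averaged median was -0.13. With arrays scaled to 1 median they were 1 between untreated lines, 0 between treated lines and 4 in FE8, with medians of -0.32 in 208F, -0.34 in FE8 and -0.37 averaged. With no intensity trend they were 1 between untreated lines, 0 between treated lines, 1 in 208F, 0 in FE8 and 4 averaged. With a mean signal of at least 200 they were 0 between treated lines, 1 in 208F and 1 in FE8. With a pseudocount of 16, and with one 4 times the main one, the 208F count was 1. Without probe sets marked as shared, which left 45 members, the averaged count was 5 and the 208F median -0.26. With second probe sets the count between treated lines was 0 and the 208F median -0.25.

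With 1 treated array left out at a time, counts ran from 0 to 4 between untreated lines, 0 to 3 between treated lines, 0 to 9 in 208F, 0 to 13 in FE8, 1 to 19 averaged and 0 to 0 for the difference. Medians ran from -0.074 to 0.072 between treated lines, 0.00 to 0.00 between untreated lines, -0.20 to -0.16 in 208F, -0.25 to -0.16 in FE8, -0.26 to -0.19 averaged and -0.167 to 0.037 for the difference. Treated duplicates differed with an SD of 0.495 in 208F and 0.448 in FE8 (log2, over all probe sets). Replicate numbers of the treated arrays are only names in the labels. The replicate 1 minus 2 differences of the lines correlated at 0.32 across probe sets, and with a replicate block the treated line comparison called 0 members (Cox7a2l at -0.88, adjusted p = 0.057) and 315 probe sets, against 341. Leaving out 208F treated replicate 1 also leaves the treated lines on 1 chip lot, a reading chosen after seeing the data. The treated line difference then had a median of 0.006 over members, against -0.006 over all probe sets. Of 38 other probe sets of members, 31 had the sign of the one used in the averaged drug effect. The test was passed by 6 of the 38, against 15.6% of all probe sets. Of these, that of Ndufb6 was lower, and those of Atp5if1, Cox5b, Cox6a2 and Ndufa4l2 were higher.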
